A study of Mus musculus with 10 samples.

Results

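Mouse C2C12 myoblasts in which the ubiquitin ligase Huwe1 was knocked down were followed from proliferation (day 0) to day 6 of differentiation, to ask what these cells still switch on and shut off with less Huwe1. Their RNA came from 4 of the 10 libraries of the series, with 1 library for each of 2 short hairpins at each day. The authors' tables give the 2 knockdown libraries of a day as 1 pooled value in FPKM (fragments counted relative to transcript length and to the depth of the library), so no value below has a replicate check, no test was possible, and the hairpins cannot be told apart. Of 23417 genes listed, 11594 (49.5%) had 1 FPKM or more at day 0 or day 6 of the knockdown and are described here. Among them, 426 passed this limit at day 0 alone and 910 at day 6 alone. The knockdown and control cells of day 0 were grown in medium with fetal bovine serum, and those of day 6 had spent 6 days in medium with horse serum. The comparison group is the same course of control cells, with 1 library labelled wild type at each day and no hairpin named. By the methods, knockdown cells were infected with lentivirus and selected with puromycin, and infection and selection cannot be told apart from the loss of Huwe1. A second day 6 control column, from the table of a USP10 overexpression experiment and not traced to a library, is given beside the first to show by how much 2 sets of control values of 1 day can differ.

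C2C12 cells divide as myoblasts in rich serum. When the serum is lowered they leave the cell cycle, the bHLH factors MyoD and myogenin with their MEF2 partners switch on the contractile genes, and the cells fuse into myotubes. CDK inhibitors and the retinoblastoma family hold the nuclei of myotubes out of the cycle, while Id proteins oppose MyoD in dividing cells. Some cells of a differentiating culture stay mononucleated as quiescent reserve cells, which keep Myf5. Huwe1 is a HECT-domain ubiquitin ligase that marks several proteins for the proteasome.

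Both hairpin sequences are given in the labels and are shown because they define the knockdown. Each is printed in capitals between 5 flanking bases of the Huwe1-201 transcript in lower case, 5′ to 3′.
hairpin 1: ccgagGGGAACCTGTGATTCGAGAaagac
hairpin 2: aaattGAGAAGAGGACAACTAGTAataca
Each 19-base sequence matched Huwe1 and no other gene among the annotated mouse transcripts, on the sense strand. The target of hairpin 1 lies in the coding sequence of exon 32 of 83, at chrX:151883185-151883203 of build mm10 (plus strand). That of hairpin 2 spans a junction within the coding sequence, with 9 bases in exon 8 (chrX:151852544-151852552) and 10 bases in exon 9 (chrX:151853399-151853408). Hairpin 1 matched 4 and hairpin 2 matched 6 of the 23 annotated Huwe1 transcripts. They are not the sequences that the methods list.

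For each gene the log2 ratio of day 6 to day 0 was taken after adding 0.01 FPKM, which understates changes of low genes, and was centred on the median of the 10258 genes with 1 FPKM or more at both days. The days are in tables that the authors normalized separately, so levels set side by side across days carry this limit, and the centring moved the ratios by -0.04 log2 units only. Here and in the rest of the text, "rose" and "fell" mean a change of 2-fold or more on this scale. From the smallest steps between low values, 1 fragment was worth about 0.0223 FPKM on a transcript of 1000 bases at day 0 of the knockdown and 0.0162 FPKM at day 6, so that values under 0.1 FPKM rest on a few fragments. By the same steps the control libraries held about 2.18e+07 fragments at day 0 and 2.99e+07 at day 6, against 7.8e+06 for the second day 6 control.

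Huwe1 itself had 15.2 FPKM at day 0 and 21.9 FPKM at day 6 of the knockdown (log2 ratio 0.57). In the control it had 38.3 and 35.1 FPKM, and 44.7 FPKM in the second day 6 control. The knockdown cells were thus lower at both days, at 39.7% of the control at day 0 and at 62.2% and 49.0% of the first and second control at day 6. Usp10, a deubiquitinase, had 64.2 and 35.4 FPKM in the knockdown (log2 ratio -0.82), whereas the control went from 68.5 to 13.2 FPKM and to 10.3 FPKM in the second control. Tbp, the TATA-binding protein, had 26.7 and 14.6 FPKM in the knockdown (log2 ratio -0.83). Its control values were 22.7 FPKM at day 0 and 10.8 and 27.8 FPKM in the day 6 controls, which differed from each other by more than the days did.

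Over all genes kept, 2293 (19.8%) rose and 1863 (16.1%) fell from day 0 to day 6 of the knockdown, and 604 (5.21%) rose and 362 (3.12%) fell 8-fold or more. In the control, 2646 of 11653 genes (22.7%) rose and 2535 (21.8%) fell, with 875 (7.51%) and 715 (6.14%) past 8-fold. Centring on a list of housekeeping genes in place of the median gene adds 0.79 log2 units to every knockdown ratio, which turns the counts of genes that rose and fell into 5022 and 790. The median over all genes kept was 0.05. Among genes with 1 FPKM or more at both days, 29.0% changed 2-fold in the knockdown, while 13.9% of 10358 genes differed 2-fold between the 2 day 6 controls. The spread of the log2 ratios (robust SD) was 0.89 between the days and 0.56 between those controls.

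**Figure D1:**
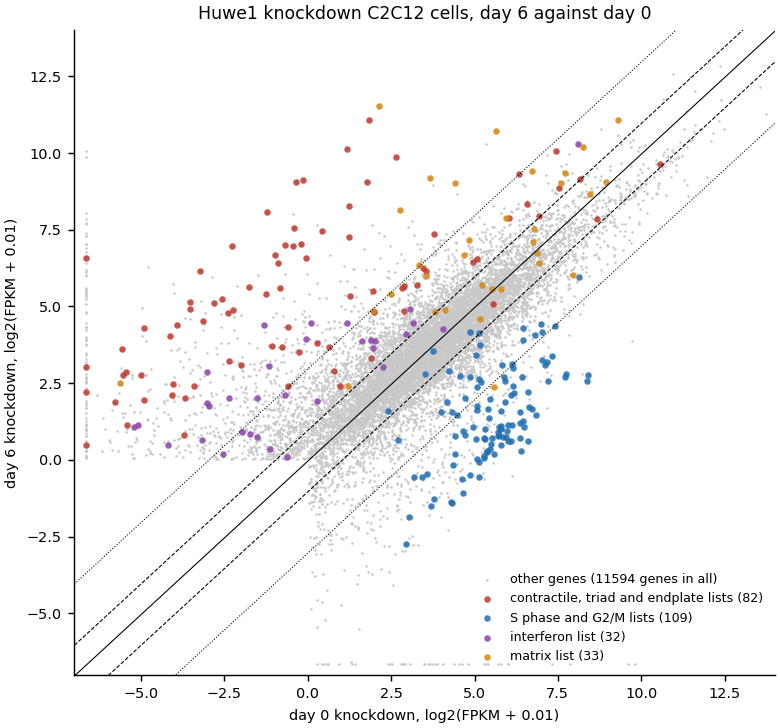
Level of each of the 11594 genes at day 0 (horizontal) and day 6 (vertical) of Huwe1 knockdown, both as log2(FPKM + 0.01), with 1 pooled value per day. The solid line marks no change after centring, dashed lines 2-fold and dotted lines 8-fold. Cell cycle genes (blue) lie below the lines and contractile, triad and endplate genes (red) above them, with a few exceptions that the text names, and interferon (purple) and matrix genes (orange) lie mostly above.

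The largest increases among genes with 1 FPKM or more at both days joined muscle genes with matrix genes. Dcn, the collagen-binding proteoglycan decorin, came first, with 4.42 FPKM at day 0 and 2987 FPKM at day 6 (log2 ratio 9.44). It was followed by the myosin light chains Mylpf (log2 ratio 9.26) and Myl1 (9.02), by the ferroxidase ceruloplasmin, Cp (7.44), and by Tnnc1, Acta1, Myl4 and Tnnc2 (7.33, 7.25, 7.08 and 7.07). The largest decreases were those of the mitotic genes Bub1b (log2 ratio -6.04), Kif23 (-5.95), Birc5 (-5.76), Aurka (-5.60), Ube2c (-5.58) and Kif2c (-5.45). Prl2c3 and Prl2c2, which encode proliferins, also stood among them (-5.83 and -5.42), with values that are uncertain because the 2 genes are near copies.

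Cell cycle genes were shut off in the knockdown. All 59 genes of a G2 and M phase list fell and 58 of them fell 8-fold or more, with a median log2 ratio of -4.99 that corresponds to 3.14% of the day 0 level, against 0.05 over all genes. Their ratios ran from -6.04 (Bub1b, a spindle checkpoint kinase) to -1.40 (Cdc25b, a phosphatase that activates CDKs). Ccnb1, the mitotic cyclin B1, had 90.3 FPKM at day 0 and 2.11 FPKM at day 6. Cdc20, an activator of the anaphase-promoting complex, had 88.4 and 2.38 FPKM. Mki67, the proliferation marker Ki-67, had 114 and 2.72 FPKM. These genes reached a few percent of their starting level. In the control the same list had a median of -6.50 (1.10% of day 0) and, with the second day 6 control, of -5.27. With the first day 6 control, the decrease was smaller in the knockdown than in the control for 56 of the 59 genes, and by 2-fold or more for 46. How far this holds depends on the control, since the median knockdown level at day 6 was 368% of the first control and 132% of the second. Among all genes kept, the knockdown log2 ratio exceeded the control one by 1 or more in 20.1% and was below it by as much in 12.5%. These are 2336 and 1453 genes, against 1641 and 1271 with the second day 6 control. For Ccnb1 the day 6 controls gave 0.432 and 2.21 FPKM, so that the knockdown value lay above the first and just under the second. Mki67 stood at 0.629 and 1.73 FPKM in these controls. In these bulk samples, fewer cells with a transcript and less transcript per cell cannot be told apart.

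The promoter of Cdc20 is shown as an example of this group, chosen for its motifs, since mitotic genes are known for CCAAT boxes and for TTTGAA, the CHR element. Here and below, the 250 bases before the start are from RefSeq on build GRCm38.p6, 5′ to 3′ on the gene's strand, with motif letters in capitals, and motifs were searched on both strands.
Cdc20, chr4:118437344-118437593, minus strand: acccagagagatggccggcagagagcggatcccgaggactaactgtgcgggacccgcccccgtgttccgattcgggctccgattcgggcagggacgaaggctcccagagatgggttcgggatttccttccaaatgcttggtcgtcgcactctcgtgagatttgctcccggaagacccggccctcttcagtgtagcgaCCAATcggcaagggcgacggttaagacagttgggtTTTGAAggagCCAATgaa
It holds CCAAT at 53 and 8 bases and the CHR at 18 bases before the start. Of 48 G2 and M phase genes with a promoter in RefSeq, 35 held CCAAT and 16 the CHR. Among all 27025 genes with a promoter the shares were 37.5% and 18.3%. CCAAT was not particular to this group. Of the lists described below, 15 of 15 cholesterol and 8 of 11 immediate early genes held it, but only 6 of 19 ribosome genes. A match is a description of the sequence and not of binding.

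Replication genes followed with smaller decreases. Of 50 S phase genes 45 fell, 24 of them 8-fold or more, and none rose, with a median log2 ratio of -2.98 (12.7% of day 0). The median was -3.31 in the control and -2.81 with the second control. Mcm10, a replication initiation factor, fell the most, from 25.4 to 0.463 FPKM. Cdc6, which loads the MCM helicase onto origins, fell from 13.1 to 0.343 FPKM (log2 ratio -5.17). Pcna, the sliding clamp, was still the highest of the list at day 6, with 62.3 FPKM after 283 FPKM at day 0 (log2 ratio -2.14). The 5 genes that did not change 2-fold were Rfc1, E2f2, Gins3, Gins4 and E2f1, with log2 ratios from -0.96 to -0.17. E2f1, a transcription factor that drives S phase genes, had 13.6 FPKM at day 0 and 11.7 FPKM at day 6 of the knockdown. In the control it went from 11.5 to 3.29 FPKM, and to 6.63 FPKM in the second control. Orc6, a subunit of the origin recognition complex, differed in the other direction. It fell from 71.4 to 7.99 FPKM in the knockdown, but had 67.1 FPKM at day 0 and 33.2 and 35.8 FPKM in the day 6 controls.

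The regulators of cell cycle exit were measured beside these genes. Of 15 CDK inhibitors, pocket proteins, D and G cyclins and related genes with 1 FPKM or more, 8 rose and 2 fell (median log2 ratio 1.14, against 0.80 in the control). Cdkn1a, the inhibitor p21, had 80.7 FPKM at day 0 and 201 FPKM at day 6 (log2 ratio 1.35), and reached 491 and 286 FPKM in the day 6 controls. Cdkn1b (p27) rose with a log2 ratio of 1.16, and Rb1 and Rbl2, pocket proteins that hold E2F in check, with 1.29 and 1.18. Rbl1, the pocket protein p107, fell (-2.28). Cdkn1c, the inhibitor p57, was measured at 0.0477 and 0.0400 FPKM in the knockdown and is no member. In the control it went from 0.197 to 8.56 FPKM, with 4.95 FPKM in the second control. Gadd45a, a stress-induced growth arrest gene, showed the largest increase of this list, from 22.4 to 409 FPKM (log2 ratio 4.23), against 1331 and 939 FPKM in the day 6 controls.

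D cyclins set the knockdown apart from the control. Ccnd1, cyclin D1, which couples growth signals to cell cycle entry, had 129 FPKM at day 0 and 69.1 FPKM at day 6 of the knockdown (log2 ratio -0.86). In the control it fell from 88.4 to 1.03 FPKM (log2 ratio -6.34), and the second control had 10.4 FPKM. The knockdown level at day 6 was higher than in either control. Ccnd2 had 27.3 and 40.5 FPKM in the knockdown, a log2 ratio of 0.61, against 29.5 FPKM in the day 0 control and 1.69 and 13.4 FPKM in the day 6 controls. Ccnd3, the D cyclin of differentiated muscle, rose from 34.4 to 92.6 FPKM in the knockdown and had 67.9 and 63.6 FPKM in the day 6 controls.

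Myogenic regulators rose in part. Of 13 measured regulators 8 rose and none fell (median log2 ratio 1.15, 1.54 in the control and 1.36 with the second control). Myf6 and Pitx3 stayed under 1 FPKM at both days of the knockdown and are not counted. Myod1, the bHLH factor that commits cells to muscle, rose from 9.30 to 62.7 FPKM. Its log2 ratio of 2.79 was close to that of the control with the first day 6 control (2.9). Its level was 42.8% of the control at day 0 and 40.5% of the first control at day 6. Both comparisons at day 6 rest on that control alone. Myog, encoding myogenin, which acts after MyoD and is needed for terminal differentiation, had 0.153 FPKM at day 0 and 27.1 FPKM at day 6 (log2 ratio 7.42). The rise was large in both courses but did not reach the same level, since the control began at 0.164 FPKM and ended at 619 FPKM, or 305 FPKM in the second control, so that the knockdown reached 4.39% and 8.90% of those levels. Mef2a and Mef2c encode partners of the bHLH factors. Mef2a rose from 21.3 to 87.1 FPKM (log2 ratio 2.07, control 3.37). Its day 6 level lay between those of the controls, close to the second (83.3 FPKM) and below the first (224 FPKM). Mef2c rose from 1.33 to 10.3 FPKM, against 97.7 and 50.0 FPKM in the controls.

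Other regulators diverged further. Rbm24, an RNA-binding protein that sets muscle splicing, had 0.00642 FPKM at day 0 and 1.5 FPKM at day 6 of the knockdown, whereas it is listed at 0 in the day 0 control and had 130.2 and 46.2 FPKM at day 6. Tead4, a TEA-domain factor induced by MyoD, had 5.67 and 4.10 FPKM in the knockdown and 4.15 FPKM before 42.6 and 16.6 FPKM in the control. Myf5, a bHLH factor of myoblasts and reserve cells, went the other way. It rose from 8.79 to 18.5 FPKM in the knockdown (log2 ratio 1.11) and fell from 12.5 to 3.51 FPKM in the control, with 4.79 FPKM in the second control. The homeobox factor gene Six4 had the lowest ratio of the regulators (-0.55).

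**Figure D2:**
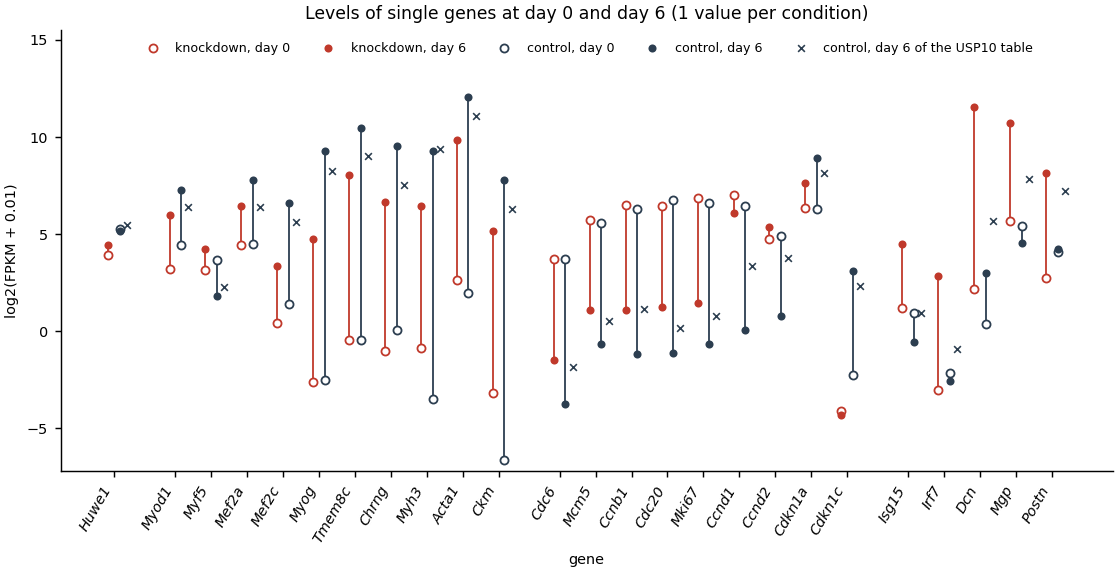
Levels of single genes as log2(FPKM + 0.01), with day 0 as open and day 6 as filled circles joined by a line, in the knockdown (red) and the control (dark), and the day 6 control of the USP10 table as a cross. Each point is 1 value, pooled over 2 libraries for the knockdown. Myog ends at 27.1 FPKM in the knockdown and 619 FPKM in the control, Ccnd1 stays high in the knockdown alone, and Dcn ends far higher in the knockdown.

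Inhibitors of the bHLH factors and other HLH repressors moved both ways. Of 12 measured genes 3 rose and 5 fell, with a median log2 ratio of -0.68 that turned to 0.11 when the housekeeping list was used for centring. Among all genes kept, the shares that rose and fell were 19.8% and 16.1%. Heyl, Id4 and Twist1 stayed under 1 FPKM at both days of the knockdown and are not counted. The Id proteins, which bind E proteins and keep them from MyoD, were lower at day 6. Id2 fell from 14.2 to 1.65 FPKM (log2 ratio -3.06), Id1 from 21.4 to 5.40 FPKM (-1.94) and Id3 from 31.0 to 11.2 FPKM (-1.43). In the control none of the 3 changed 2-fold. Id2 there had 8.81 FPKM at day 0 and 10.6 and 14 FPKM in the day 6 controls. Snai2, a repressor of the Snail family, was the highest of this list at day 6, at 48.7 FPKM after 30.3 FPKM. Twist2 and Msc, repressors of MyoD activity in undifferentiated cells, ended lower in both day 6 controls than in the knockdown. Twist2 fell from 14.7 to 3.96 FPKM in the knockdown and from 20.5 to 0.0275 FPKM in the control, with 1.90 FPKM in the second control. Msc, or musculin, had 3.22 and 5.28 FPKM in the knockdown, a log2 ratio of 0.75, against 3.57 FPKM and then 0.0603 and 0.155 FPKM in the control. Bhlhe41, a bHLH repressor, rose alike, from 2.75 to 21.3 FPKM in the knockdown and from 2.87 to 21.3 FPKM in the control.

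Genes for fusion were induced. Tmem8c encodes myomaker and Gm7325 myomixer, the membrane proteins that fuse myoblasts. Tmem8c rose from 0.725 to 261 FPKM (log2 ratio 8.51) and reached 1399.7 and 516 FPKM in the day 6 controls. Gm7325 is listed at 0 at day 0 of the knockdown and had 5.87 FPKM at day 6, against 30.3 and 14.3 FPKM in the controls. Of 14 fusion and adhesion genes 8 rose, and Adam12, a metalloprotease, fell (-2.46). Bai1, Bai3, Nfatc2 and Stab2 stayed under 1 FPKM at both days of the knockdown and are not counted. Cdh15, the muscle cadherin, rose from 30.3 to 121 FPKM and Itga7, the laminin receptor of myoblasts, from 46.8 to 308 FPKM. The day 6 values of both were near the higher of the controls, which stood at 121 and 35.9 FPKM for Cdh15 and 325 and 176 FPKM for Itga7. Cdh2, N-cadherin, did not follow the control, with 50.1 and 34.2 FPKM in the knockdown and 31.4 FPKM before 164 and 97.4 FPKM in the control.

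Thick filament genes rose in the knockdown, each to a day 6 level below both controls. All 15 thick filament genes rose 8-fold or more (median log2 ratio 7.81, control 12.82), and at day 6 their median level was 8.28% of the first control and 16.5% of the second. Because 8 of them had under 0.1 FPKM at day 0, the median depends on the value added before taking logs and was 3.06 with 1 FPKM added. These 8 passed the limit of 1 FPKM at day 6 alone, which fixes a rise of 8-fold or more for them. Mybpc2 and Myl3 stayed under the limit at both days and are not counted. Mylpf, the fast regulatory light chain, was the highest, with 3.58 FPKM at day 0 and 2146 FPKM at day 6, against 5865 and 2857 FPKM in the controls. Mylk2, the skeletal myosin light chain kinase, rose the least (3.05). Myl2, the slow regulatory light chain, is listed at 0 at day 0 and had 94.9 FPKM at day 6. Myh3, the embryonic myosin heavy chain, had 0.533 FPKM at day 0 and 86.2 FPKM at day 6, and Myh8, the perinatal one, 0.0130 and 7.22 FPKM. Myh1, an adult fast form, had 0.158 FPKM and then 38.3 FPKM. The day 6 controls held 616 and 676 FPKM of Myh3, 507 and 152 FPKM of Myh8 and 2029 and 235 FPKM of Myh1, all above the knockdown. Values of single myosin heavy chain genes are uncertain, since these genes are close copies that can share reads.

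On the thin filament, 14 of 16 genes rose, 13 of them 8-fold or more (median log2 ratio 7.39, control 9.98). Tmod4 stayed under 1 FPKM at both days of the knockdown and is not counted. Acta1, skeletal actin, rose from 6.28 to 932 FPKM and Actc1, the cardiac actin that embryonic muscle uses, from 0.723 to 125 FPKM. Acta1 had 4282 and 2164 FPKM and Actc1 1266 and 544 FPKM in the day 6 controls. The fast troponin T Tnnt3 showed the largest ratio of this list, from 0.777 to 532 FPKM (log2 ratio 9.44). Tnnt2, cardiac troponin T, was already present at day 0 (80.8 FPKM) and rose to 639 FPKM, close to the 717 FPKM of the second control. The tropomyosins Tpm1 and Tpm3, which also have forms outside muscle, did not change 2-fold (-0.89 and -0.80). Tpm1 remained high, with 1520.3 FPKM at day 0 and 798 FPKM at day 6.

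All 27 Z-disc and M-band genes rose, 20 of them 8-fold or more, with a median log2 ratio of 5.65 against 7.68 in the control. As 9 of them had under 0.1 FPKM at day 0, this median was 2.80 with 1 FPKM added and 2.15 over the genes with 1 FPKM or more at both days. These 9 passed the limit of 1 FPKM at day 6 alone, which fixes a rise of 8-fold or more for them. Myot and Myoz1 stayed under the limit at both days and are not counted. Ttn, the giant spring titin, had 0.184 FPKM at day 0 and 9.43 FPKM at day 6, and 64.6 and 51.9 FPKM in the day 6 controls. Des, the intermediate filament desmin, was the highest, rising from 173 to 1083 FPKM, a value just above the second control (1053 FPKM) and below the first (1769 FPKM). Smpx, a small protein of striated muscle, is listed at 0 at day 0 and had 8.10 FPKM at day 6, and Cryab, the chaperone αB-crystallin, rose the least (1.04). Nrap and Cap2, which take part in myofibril and actin assembly, stayed lowest relative to the control. Nrap reached 1.74 FPKM against 194 and 186 FPKM, and Cap2 1.40 FPKM against 196 and 69.5 FPKM. The day 6 control value of Xirp2 is a failed estimate listed at 0.

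Genes of the triad and the endplate rose as well. Of 18 excitation-contraction coupling genes 17 rose, 12 of them 8-fold or more (median log2 ratio 4.53, control 5.97). Cacna1s, the voltage sensor of the T-tubule, had 0.0231 FPKM at day 0 and 19.7 FPKM at day 6, and Ryr1, the calcium release channel, 0.179 and 27.3 FPKM. Trdn, or triadin, which anchors calsequestrin to that channel, had the largest ratio (9.42) and ended near the control, at 71.1 FPKM against 84.0 and 101 FPKM. Bin1, which shapes T-tubules, was the highest at day 6, with 321 FPKM after 96.3 FPKM. Asph did not change 2-fold (-0.45). Clcn1, Pvalb, Ryr3, Scn4a and Sln stayed under 1 FPKM at both days of the knockdown and are not counted. All 6 measured genes of the acetylcholine receptor list rose (median log2 ratio 2.81, control 3.09). Chrng, the fetal γ subunit of the receptor, led them, with 0.491 FPKM at day 0 and 102 FPKM at day 6, against 744 and 184 FPKM in the controls. Chrna1, the α subunit, rose from 65.1 to 234 FPKM and Chrnb1, the β subunit and lowest of the list by ratio, from 34 to 93.1 FPKM. Rapsn, which clusters the receptor, ended at 50.7 FPKM, above both controls (42.2 and 41.9 FPKM). Ache, Chrne, Colq and Dok7 of this list stayed under 1 FPKM at both days of the knockdown and are not counted. Leaving out genes that stayed low in the knockdown favours a rise in the counts and medians of both lists.

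The promoter of Chrng, chosen for its motifs, shows the E-box CAGCTG that MyoD and myogenin bind.
Chrng, chr1:87205561-87205810, plus strand: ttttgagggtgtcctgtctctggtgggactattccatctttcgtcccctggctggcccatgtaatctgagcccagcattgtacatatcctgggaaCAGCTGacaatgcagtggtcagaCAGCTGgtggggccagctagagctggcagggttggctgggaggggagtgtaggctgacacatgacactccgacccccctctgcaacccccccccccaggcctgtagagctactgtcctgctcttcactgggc
It holds 2 E-boxes, 155 and 132 bases before the start. The same letters were found in 3 of 4 acetylcholine receptor genes with a promoter, 10 of 20 Z-disc and M-band genes, 6 of 14 thick filament genes, 5 of 12 thin filament genes and 5 of 9 excitation-contraction genes, against 14.7% of all promoters. In the G2 and M phase list 4 of 48 held it.

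Metabolic genes of muscle had a smaller median ratio than the filament genes. Of 17 such genes 11 rose and none fell, with a median log2 ratio of 1.31 in the knockdown, 4.78 in the control and 2.93 with the second control. Ampd1, Ckmt2 and Fbp2 stayed under 1 FPKM at both days of the knockdown and are not counted. Of these, Ampd1 had 0.105 FPKM at day 6 of the knockdown, against 4.70 and 1.26 FPKM in the day 6 controls. Ckm, the muscle creatine kinase, had 0.0990 FPKM at day 0 and 36.2 FPKM at day 6, whereas it is listed at 0 in the day 0 control and had 219 and 78.1 FPKM at day 6. Mb, or myoglobin, rose from 0.0507 to 52.6 FPKM, against 1097 and 199 FPKM. Cox8b, a muscle form of a cytochrome oxidase subunit, is listed at 0 at day 0 and had 13.6 FPKM at day 6. Pygm, glycogen phosphorylase, rose to 6.66 FPKM and Pfkm, the muscle phosphofructokinase, to 46.0 FPKM, against 201 and 362 FPKM in the first control. Eno3, the muscle enolase and the highest of this list at day 6, had 373 FPKM at day 0 and 198 FPKM at day 6 (log2 ratio -0.87), and the controls differed from each other widely at 942 and 104 FPKM.

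**Figure D3:**
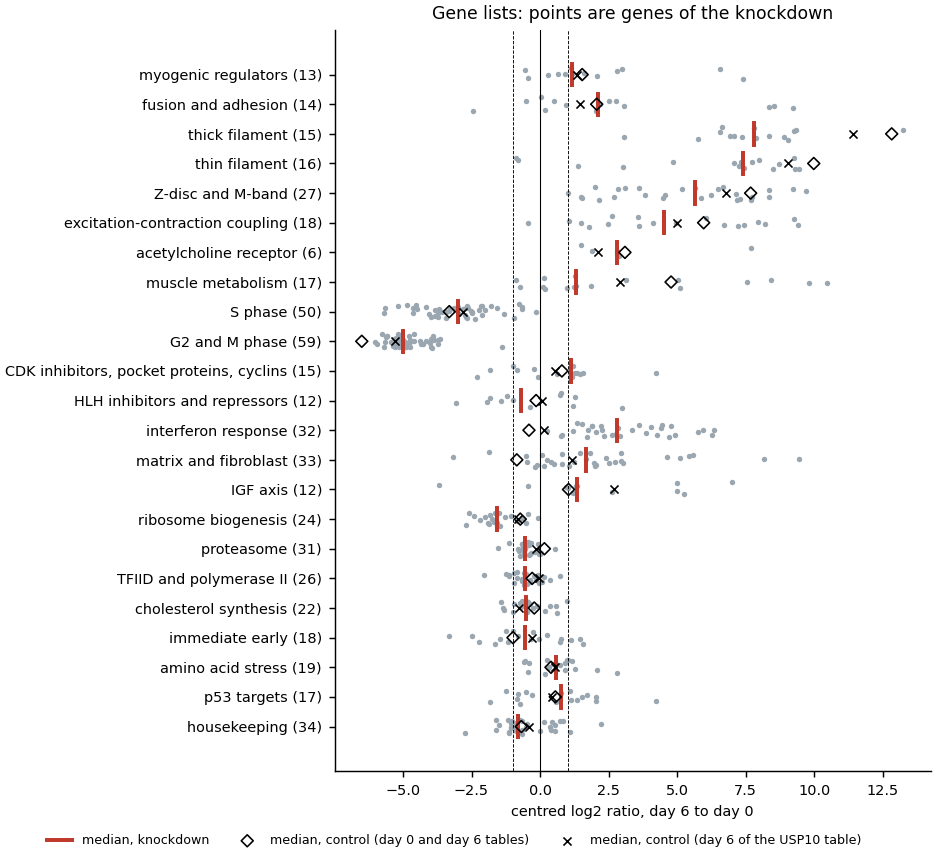
Centred log2 ratio of day 6 to day 0 for each gene of 23 lists (points, Huwe1 knockdown, number of genes in brackets), with the median of the knockdown (red bar) and of the same genes in the control with the day 6 table (diamond) or with the USP10 table (cross). Dashed lines mark 2-fold, and 1 failed estimate listed at 0 at day 6 is left out of the points. The red bars of the contractile lists lie left of the diamonds, and those of the interferon and matrix lists lie right of them.

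Interferon-induced genes rose during differentiation of the knockdown. These genes are switched on by factors such as STAT2, IRF9 and IRF7 and include sensors and effectors against viral RNA. Of 32 with 1 FPKM or more 29 rose, 14 of them 8-fold or more, and none fell, with a median log2 ratio of 2.81. In the control 5 of the same genes rose and 13 fell (median -0.41, 0.14 with the second control). Their median control levels were low, at 0.373 FPKM at day 0 and 0.280 FPKM at day 6. At day 0 of the knockdown the median level was 0.527 FPKM, so many passed the limit at day 6 alone, which favours a rise. Over the list members with 1 FPKM or more at both days the median log2 ratio was 1.88. Cxcl10, Mx1, Oasl1 and Psmb9 stayed under 1 FPKM at both days. Isg15, a ubiquitin-like modifier, had 2.26 FPKM at day 0 and 22.3 FPKM at day 6, while the control went from 1.89 to 0.662 FPKM and 1.91 FPKM. Irf7, the factor that amplifies the response, had 0.113 FPKM and then 7.25 FPKM, and Ifit3 0.396 and 21.2 FPKM. Oas2, an RNA sensor, showed the largest ratio (6.33) at low levels, 0.0169 and 2.09 FPKM, and Irgm1, a GTPase, the smallest (0.25). B2m, the invariant chain of MHC class I, was the highest, with 276 FPKM at day 0 and 1242 FPKM at day 6, against 136 and 402 FPKM in the controls. Irf9, which encodes a part of the factor complex, rose from 3.74 to 15.1 FPKM. The level of the list at day 0 was like that of the control, with a median knockdown level of 106% of the control one.

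The promoter of Isg15, chosen in the same way, is shown with the interferon element GAAANNGAA, whose overlapping matches run into each other.
Isg15, chr4:156200819-156201068, minus strand: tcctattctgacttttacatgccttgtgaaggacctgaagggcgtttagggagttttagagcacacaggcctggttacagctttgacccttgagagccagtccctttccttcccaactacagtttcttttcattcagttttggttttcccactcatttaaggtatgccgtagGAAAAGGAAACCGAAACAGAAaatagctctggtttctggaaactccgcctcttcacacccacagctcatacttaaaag
It holds 3 overlapping elements, at 78, 72 and 66 bases before the start. Of 24 interferon genes with a promoter 13 held the element, against 8.18% of all promoters.

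Matrix genes and genes of fibroblasts and mesenchymal cells also rose. Of 33 genes 20 rose, 7 of them 8-fold or more, and 2 fell (median log2 ratio 1.69). Their median was -0.85 in the control, but 1.15 with the second day 6 control, so the controls lay on either side of no change. Dcn, described above, had 7.94 and 50.3 FPKM in the day 6 controls, against 2987 FPKM in the knockdown. Mgp, an inhibitor of calcification, rose from 50.3 to 1697 FPKM and had 23.5 and 227 FPKM in the controls. Ly6a, the surface protein Sca-1, rose from 12.6 to 584 FPKM, against 2.54 and 31.3 FPKM. Postn, or periostin, rose from 6.74 to 285 FPKM, against 18.6 and 147 FPKM. All 4 ended above both controls. Cd34, a surface marker of satellite and other stem cells, rose from 28.5 to 145 FPKM. The fibril collagen Col1a1 had 118 FPKM at day 0 and 107 FPKM at day 6 of the knockdown, where the control had 144 FPKM and then 4.61 and 57.5 FPKM. Bgn, or biglycan, a relative of decorin, did not change 2-fold (0.15) and had 531 FPKM at day 6, below the 2089 FPKM of the second control. Tnc, tenascin C, fell (-3.16), as did Timp1, an inhibitor of metalloproteases (-1.86).

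Insulin-like growth factor genes, which promote muscle differentiation, were induced short of the control for the main ligand. Igf2 had 0.154 FPKM at day 0 and 20.2 FPKM at day 6 of the knockdown, against 0.0719 FPKM and then 613 and 249 FPKM in the control. H19, the non-coding neighbour with which Igf2 shares enhancers, had 13.5 FPKM at day 0 and 499 FPKM at day 6, against 2957 and 2764 FPKM in the controls. Igfbp5, a binding protein made by differentiating muscle, rose to the level of the controls, from 40.9 to 1251 FPKM (1074 and 1298 FPKM). Igfbp2 fell from 60.3 to 4.54 FPKM, from a day 0 level that was 11% of the control. In all, 9 of 12 genes of this axis rose and 1 fell (median 1.34, control 1.04 and 2.70).

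Growth genes were lower at day 6. Of 24 genes for building ribosomes 19 fell and none rose (median log2 ratio -1.59, -0.72 in the control and -0.81 with the second control). Under housekeeping centring the knockdown median was -0.80, which is less than 2-fold. The decrease was larger in the knockdown than in the control for 23 of them. Npm1, nucleophosmin, fell the most and was still the highest, from 4029 to 595 FPKM, while Rrp12, a ribosome export factor, changed the least (-0.09). Ncl, nucleolin, fell from 566 to 121 FPKM. Nop56, a core protein of methylation guide particles, fell from 348 to 63.0 FPKM, against 288 FPKM and then 100.3 and 108 FPKM in the control. Myc, which drives these genes in growing cells, fell from 35.6 to 14.5 FPKM (log2 ratio -1.25). Odc1, the enzyme that starts polyamine synthesis, fell from 256 to 40.4 FPKM and had 132 and 80.0 FPKM in the day 6 controls. Mycn was under 0.1 FPKM at both days of the knockdown.

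Proteasome and general transcription genes stayed mostly within 2-fold. Over all genes kept, 19.8% rose and 16.1% fell. Of 31 proteasome subunits 2 fell, Psma1 (-1.55) and Psmd14 (-1.13), and none rose (Psmd8 came highest at 0.56), with a median log2 ratio of -0.55 that turned to 0.24 when the housekeeping list was used for centring. Psmd4, a ubiquitin receptor, was the highest at day 6, at 251 FPKM. Their median was 0.16 in the control and -0.14 with the second control, and the knockdown ratio was below the control one for 28 of 31 subunits. Of 26 genes for TFIID, its partners and RNA polymerase II, 4 fell, a share near that of all genes. They were Taf5 (-2.06), Taf12 (-1.25), Polr2a (-1.13) and Taf9 (-1.12). The median of -0.53 turned to 0.26 under housekeeping centring. Taf8 had the highest ratio (0.74). Taf4a, a TFIID subunit, had 10.6 and 7.94 FPKM. Of 34 housekeeping genes 11 fell and 2 rose (median -0.79, control -0.68), from Tubb5, a tubulin (-2.75), to B2m (2.21), which is also on the interferon list. Eef1a1, a translation elongation factor, was the highest at day 6, at 3355 FPKM after 5396 FPKM. Gapdh had 671 and 389 FPKM (-0.75).

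Stress, growth signal and sterol genes gave small medians. The counts below stand beside 19.8% of all genes kept that rose and 16.1% that fell. Of 18 immediate early genes 3 rose and 7 fell (median -0.56, 0.22 under housekeeping centring). Fosl1, an AP-1 subunit of growing cells, fell the most, from 22.4 to 2.17 FPKM, and Jund rose the most, from 32.3 to 93.7 FPKM. Ankrd1, a muscle ankyrin repeat protein and YAP target, was the highest at day 6, at 1363 FPKM after 856 FPKM. Ctgf and Cyr61, also targets of YAP, did not change 2-fold in the knockdown (0.77 and 0.26). In the control Ctgf went from 48.1 to 6.04 FPKM, with 42.1 FPKM in the second control, against 260.3 FPKM at day 6 of the knockdown. As the knockdown level changed less than 2-fold, it was above the control at day 0 already. Of 19 amino acid and endoplasmic reticulum stress genes 5 rose (median 0.57), led by Nupr1, a stress-induced nuclear protein, from 144 to 971 FPKM, with Shmt2 lowest (-0.60). Of 17 p53 targets 8 rose and 2 fell (median 0.75), with Gadd45a highest and Ccng1 lowest by ratio (-1.83). Trp53 itself fell from 64.7 to 19.5 FPKM. Mcl1, a survival protein and Huwe1 substrate, had 49.7 and 54.4 FPKM. The 22 cholesterol genes had a median log2 ratio of -0.50, which turned to 0.29 under housekeeping centring. Fdps was the highest at day 6, at 82.5 FPKM, and Tm7sf2 had the highest ratio (0.98). Idi1 fell from 56.9 to 20.5 FPKM.

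How much of the control response remained was counted over the genes that changed 8-fold or more in the control, whose libraries are not shared with the knockdown. Every such gene was counted, also the 338 that rose and the 23 that fell in the control and stayed under 1 FPKM at both days of the knockdown. Of the 875 that rose in the control, 438 (50.1%) also rose 8-fold or more in the knockdown, 114 of them at under 1 FPKM, 278 rose 2- to 8-fold, 141 changed less than 2-fold and 18 fell. Their median log2 ratio was 5.78 in the control and 3.0 in the knockdown, and 792 of them rose less in the knockdown. Of the 715 that fell in the control, 272 (38%) fell 8-fold or more, 2 of them from under 1 FPKM, 206 fell 2- to 8-fold, 195 changed less than 2-fold and 42 rose in the knockdown. The order of the 2 shares turned with 1 FPKM added before logs (28.9% and 44.4%) and with the second day 6 control (52.4% and 54.3%). For the genes that fell in the control the medians were -4.65 and -2.04, and 682 fell less in the knockdown. A smaller change is what a list chosen for large control changes favours, so these last counts describe the lists and are no sign of a general loss. Among genes with 1 FPKM or more in the knockdown, 324 of the 604 genes past 8-fold upward in the knockdown (53.6% of these and 37.0% of the 875) and 270 of the 362 past 8-fold downward (74.6% of these and 37.8% of the 715) were past 8-fold in the same direction in the control.

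**Figure D4:**
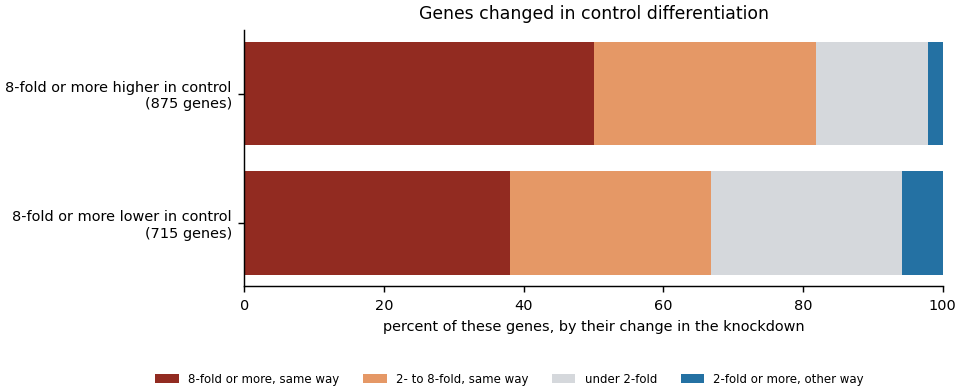
Share of the genes that rose (875) or fell (715) 8-fold or more in the control, by their change from day 0 to day 6 in Huwe1 knockdown cells (horizontal axis, percent of the genes of a bar). The darkest section is the share that changed 8-fold or more in the same direction, 50.1% and 38%, with genes under 1 FPKM in the knockdown counted (without them in that section, 37.0% and 37.8% of the same genes).

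The genes at the ends of this comparison were picked by rule, with small RNA genes left out because they filled most places. Among genes that rose 8-fold in the control, those that rose as much or more in the knockdown included Cp, the Z-disc protein gene Synpo2l, Macrod1, 3425401B19Rik and Sgca, a member of the sarcoglycan complex that spans the muscle membrane. Synpo2l had 0.411 FPKM at day 0 and 42.0 FPKM at day 6 (log2 ratio 6.68, control 4.96), and Sgca 0.609 and 66.8 FPKM (6.79, control 5.68). Both began below the day 0 control (4.34 and 1.74 FPKM). At day 6 Synpo2l was below both controls (128 and 63.6 FPKM) and Sgca lay between them (85.6 and 54.4 FPKM). The least kept by ratio were Parm1, Gpx3, Apoo-ps, Myh1, Gas6 and Tspan13. Apoo-ps stands among them because its day 0 control is listed at 0. Its day 6 level of 13.2 FPKM in the knockdown was near those of the controls (15.8 and 14.8 FPKM). Gpx3, a secreted glutathione peroxidase, had 0.0765 and 1.19 FPKM in the knockdown and 89.7 and 130.1 FPKM in the day 6 controls. Gas6, a ligand of TAM receptors, had 0.426 FPKM at day 6 of the knockdown and 32.8 and 60.8 FPKM in the controls. Parm1 rests on 1 control, since it had 14.3 FPKM in the first and 0.435 FPKM in the second.

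Among genes that fell 8-fold in the control, 6 were picked for the most reduced decrease in the knockdown. Stmn4, a stathmin, had 16.8 FPKM at day 0 and 17.3 FPKM at day 6, Pet2 42.0 and 67.7 FPKM, and Cdh5, the VE-cadherin gene, 11.2 and 6.83 FPKM. In the day 6 controls these 3 genes were all under 1 FPKM. The others were Prl2c3, Rplp2-ps1 and Sprr1a, an epithelial envelope protein gene, all listed at 0 in the first day 6 control. The size of their decrease in that control thus rests on the value added before logs. All fell in the knockdown as well (log2 ratios -5.83, -2.08 and -3.20). With the second control Prl2c3 and Sprr1a still fell more in the control course than in the knockdown (-6.04 for Sprr1a), but Rplp2-ps1 fell less (-1.60). Those that fell as much or more in the knockdown were Asf1b, Spag5, 4632434I11Rik, Cnn1, Psrc1 and Gins1. Asf1b, a histone chaperone, fell from 26.2 to 0.628 FPKM, and Cnn1, the smooth muscle calponin, from 12.5 to 0.279 FPKM.

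Another set, also picked by rule, changed in the knockdown and changed less than 2-fold between the first controls. The largest increases of this kind were those of Sema3c, a secreted semaphorin (log2 ratio 5.77), Postn (5.44), Mgp (5.12), Rcan2 (5.05), C1qtnf1 (4.97) and the adenosine receptor Adora2b (3.94). With the second day 6 control all 6 rose by 2-fold or more in the control course as well, from 1.19 (Adora2b) to 3.96 (C1qtnf1), always less than in the knockdown. Sema3c had 3.81 FPKM at day 0 and 202 FPKM at day 6, against 8.80 and 24.3 FPKM in the controls. The largest decreases were those of Orc6 (-3.12), Id2 (-3.06), the prostaglandin synthase Ptgs2 (-3.04), the RNA helicase Ddx39 (-2.98), Tarsl2 (-2.67) and Odc1 (-2.62). With the second control Ddx39 and Odc1 fell in the control course as well (-1.06 and -1.41) and Ptgs2 rose (2.03). Ptgs2 began higher in the knockdown, at 44.1 FPKM against 9.14 FPKM in the day 0 control, and ended at 5.18 FPKM, below both controls (6.33 and 34 FPKM). In all, 203 genes rose in the knockdown and fell in the control, 78 of them also with the second control, and 31 did the reverse. With 1 FPKM or more in all 4 columns these counts were 72 and 12 of 9635.

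**Figure D5:**
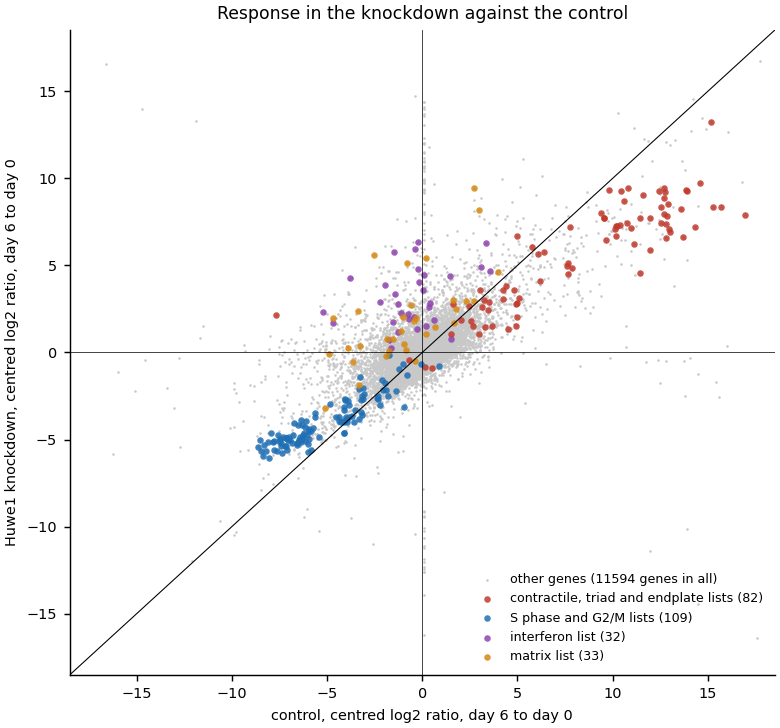
Centred log2 ratio of day 6 to day 0 in the knockdown (vertical) against the control (horizontal) for the 11594 genes, 1 value per gene and course, with the line of equal change. Contractile, triad and endplate genes (red) lie to the right and mostly below the line, cell cycle genes (blue) to the left and mostly above it, and interferon genes (purple) above 0 on the vertical axis. Of the red points left of 0, the far one is Xirp2, whose day 6 control value is a failed estimate listed at 0, and the other is Asph.

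Genes that went from under 0.1 FPKM to the highest levels at day 6 were, leaving small RNA genes out, Myl2, Cyp2f2, Trdn, Mb, Hsd11b1, Ckm, Lmod3 and Cxcl13. Besides muscle genes these hold Cyp2f2, a cytochrome P450 (78.6 FPKM at day 6, 0.358 and 4.56 FPKM in the controls), Hsd11b1, which regenerates active glucocorticoid (43.5 FPKM, 3.96 and 27.7 FPKM), and the chemokine Cxcl13 (30.8 FPKM, 1.68 and 0.854 FPKM). All 3 were higher in the knockdown than in either control. Of those that went to under 0.1 FPKM, Hist1h2ab and Hist1h1a are histone genes of S phase (5.91 and 5.40 FPKM at day 0), and Depdc1b (3.81 FPKM) and BC030867 (4.58 FPKM) fell as well. Lce1g and U90926 are listed at 0 at day 6, after 7.24 and 7.50 FPKM. Rnu73b and H2-L are listed at 0 in every column but day 0 of the knockdown, and their names could not be matched to RefSeq.

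Markers of the labelled cell type were present, and 1 FPKM was reached by 5 of 9 adipocyte, 4 of 9 bone and cartilage, 1 of 9 blood, 2 of 6 endothelial and 5 of 7 smooth muscle markers. All 6 myoblast markers rose, from Myf5 (1.11) to Myod1 (2.79). Among adipocyte markers Adipoq, Lep and Cfd are listed at 0 at both days. Lpl, lipoprotein lipase, which muscle also makes, rose from 9.69 to 130.1 FPKM, against 9.44 and 27.4 FPKM in the controls. Cd36, a fatty acid transporter also of muscle, rose from 0.00606 to 1.55 FPKM, and Pparg fell from 14.6 to 6.33 FPKM. The summed level of the 9 was 26.0 FPKM at day 0 and 145 FPKM at day 6 of the knockdown, and 21.1 and 48.1 FPKM in the day 6 controls. Among bone and cartilage markers Ibsp is listed at 0, Acan, Alpl, Col2a1 and Sp7 stayed under 0.1 FPKM, Sox9 had 26.1 and 20.6 FPKM, Bglap, which encodes osteocalcin, rose from 0.594 to 9.06 FPKM (control 5.91 and 7.89 FPKM at day 6), Col10a1 rose from 0.0928 to 1.66 FPKM and Runx2 fell from 12.5 to 5.17 FPKM, with sums of 39.2 and 36.6 FPKM. The blood marker at 1 FPKM was Cd68, of macrophages (1.35 and 1.35 FPKM), and Emr1, Cd3e and Hbb-b1 are listed at 0. Among endothelial markers Cldn5 is listed at 0 and Pecam1 and Vwf stayed under 0.1 FPKM, while Cdh5 was measured as given above and Tek, an angiopoietin receptor, rose from 0.133 to 1.08 FPKM (log2 ratio 2.97). Among smooth muscle markers Acta2 had 594 and 551 FPKM, Tagln fell from 148 to 20.6 FPKM and Myh11 stayed under 0.1 FPKM. The summed levels of the blood and endothelial lists at day 6 were 1.77 and 7.93 FPKM in the knockdown, 1.93 and 0.247 FPKM in the first control and 4.70 and 0.809 FPKM in the second. The part of other cell types in the rise of matrix and interferon genes was not tested.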

How the data were processed

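RNA was isolated from C2C12 cells, made into directional libraries (ScriptSeq v2) and sequenced on an Illumina HiSeq instrument. Per the methods, alignment was done by the authors in Tophat and expression was estimated in Cuffdiff, while the submitters' processing notes name Bowtie2, Cuffdiff and the build mm10, with versions not given in the sources used here. The deposited values are FPKM per gene, 1 value for each condition of a table, so the authors pooled the 2 knockdown libraries of a day. The deposited tables also hold the output of Cuffdiff's own comparison (p-value, q-value, test score, log2 fold change and call of significance), none of which was used, and an estimate status, of which 6 genes kept were listed as failed or too deep.

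In all, 5 FPKM columns from 3 tables were used, and none was left out for want of a sample. Ratios were computed as described in the report, with numpy 2.4.6 and pandas 2.3.3 in Python 3.11.15, and plotted with matplotlib 3.10.9. With 1 value per condition no test was run. The script that counts changes was checked on data with known answers. Whether the 2 knockdown libraries of a day came from separate cultures is not stated in the sources used here.

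Genes were grouped by 30 lists written by hand. The members, lists and rules were chosen with earlier results of these data known. The genes named were those the study names, the 8 largest increases and decreases with 10 FPKM or more at 1 day, 1 FPKM at both and a locus of 500 bases or more, the 8 highest switched on from or off to under 0.1 FPKM, the 6 at each end of the comparison with the control, the 6 largest changes each way in the knockdown alone, and, in each list, the highest at day 6, the extremes and members of known role. Genes of small nucleolar RNAs and microRNAs, which the libraries are not made to measure, were left out of this naming after the values were seen. Some genes that the rule picks are not reported here. Annotation from GENCODE vM21 and RefSeq (GRCm38.p6) gave gene types for 23293 of the listed genes (99.5%). Alternatives changed the value added before logs, the filter, the centring and the day 6 control, left out failed estimates, short loci or, added after the values were seen, small RNA genes.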

Additional observations from a re-analysis of the deposited data

Results flagged for a closer look

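Single genes of the lists went opposite ways in the knockdown and the control. Among 535 listed or named genes with 1 FPKM or more in the knockdown and a value above 0 in every control column, 4 rose 2-fold or more in the knockdown and fell 2-fold or more with both day 6 controls, and 0 did the reverse. With 1 value per condition the differences were not tested, and both control ratios share the day 0 control. Myf5, the bHLH factor of myoblasts and reserve cells, had log2 ratios of 1.11 in the knockdown and -1.76 and -1.24 with the first and second control. The interferon-induced gene Oasl2 had 4.26 against -3.80 and -3.20, going from 0.436 to 8.28 FPKM in the knockdown. Rsad2, or viperin, of the same group, had 2.92 against -2.21 and -2.44. Thbs2, the matrix protein thrombospondin 2, had 2.00 against -4.68 and -1.47, and rose from 60.9 to 238 FPKM.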

How the results depend on the processing

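Leaving out failed estimates or short loci, or not centring, moved no count by more than 1.5 times and no list median by 0.56 log2 units or more. The latter limit is the robust SD between the day 6 controls, used for want of replicates. It is not a replicate spread, since the second control is not traced to a library and held about 7.8e+06 fragments against 2.99e+07. Where other alternatives moved values further, fewer genes, another added value or another centre entered by construction. With 1 FPKM added, 246 and 200 genes were past 8-fold higher and lower in the knockdown, the list medians that moved became 1.33 (fusion), 3.06 (thick filament), 6.25 (thin filament), 2.80 (Z-disc and M-band), 3.67 (excitation-contraction), -4.24 (G2 and M phase) and 1.67 (interferon), and of 425 genes past 8-fold higher in the control 308 rose 2-fold and 123 (28.9%) 8-fold, while of 351 past 8-fold lower 270 fell 2-fold and 156 (44.4%) 8-fold, so that the order of the 8-fold shares (50.1% and 38% with 0.01 FPKM added) turned, as it did with 0.1 FPKM added (36.5% and 38.3%) and with the second day 6 control (52.4% and 54.3%). With 0.1 FPKM added the moved medians were 6.06 (thick filament) and 4.73 (Z-disc and M-band). With at least 5 FPKM at 1 day, 372 genes were past 8-fold higher, 467 of 558 control genes rose 2-fold, and the moved medians were 1.5 (fusion), 2.49 (muscle metabolism) and 2.13 (interferon). With 1 FPKM or more in every column, 1468 genes rose, 121 and 156 were past 8-fold, 126 and 51 of 163 control genes rose 2-fold and 8-fold, 151 and 65 of 211 fell as much, 1360 genes had a knockdown ratio above the control one by 1 or more, and the moved medians were 0.51 (fusion), 9.02 (thick filament), 3.03 (thin filament), 2.15 (Z-disc and M-band), 2.55 (excitation-contraction), 0.58 (muscle metabolism) and 1.88 (interferon). Centring on the housekeeping list moved every ratio by 0.79, which gave 5022 genes that rose (86.4% of the changed genes, against 55.2%), 790 that fell, 915 past 8-fold higher, 317 of 522 control genes that fell 2-fold, and list medians of 1.94 (myogenic regulators), 0.11 (HLH inhibitors), 2.91 (fusion), 8.6 (thick filament), 8.18 (thin filament), 6.43 (Z-disc and M-band), 5.32 (excitation-contraction), 3.59 (acetylcholine receptor), 2.09 (muscle metabolism), -2.19 (S phase), -4.20 (G2 and M phase), 1.93 (CDK inhibitor), 0.22 (immediate early), 0.29 (cholesterol), -0.80 (ribosome biogenesis), 1.36 (amino acid), 3.60 (interferon), 2.48 (matrix), 2.12 (IGF), 1.54 (p53), 0.26 (TFIID), 0.24 (proteasome) and 0 (housekeeping), so that those of the HLH inhibitor, immediate early, cholesterol, TFIID and proteasome lists changed sign. Leaving out small RNA genes or using the second day 6 control moved no count of the knockdown or of its difference from the control by more than 1.5 times. With the second control, however, the knockdown ratio was above the control one by 1 or more for 1641 genes, against 2336 with the first. It was below by as much for 1271 genes, against 1453, so the 2 directions came closer to each other.

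No paired analysis was possible because the deposited columns pool the hairpin libraries of a day, and for the same reason leaving out each library in turn was not possible. The smallest change a value can show is set by depth, and the columns with the fewest fragments give the coarsest low values, so listed values of 0 are no proof of absence. The tables were scaled separately, which a single centring corrects only on the whole. A hairpin that acted on other transcripts, an uneven pool of the 2 libraries, and differences between cultures cannot be told apart from the effect of knockdown here.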

Other observations

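Genes of small nucleolar RNAs and microRNAs gave the most extreme ratios. They were 161 of the genes kept, and 77 of the 133 genes listed at 0 at 1 day of the knockdown were of this kind. Had they not been left out, they would have filled all 8 places among genes switched on and 7 of 8 among genes switched off. Snord66 is listed at 0 at day 0 and had 1072 FPKM at day 6, with 0 at day 0 and 2065 FPKM at day 6 in the control and 0 in the second day 6 control. Snord65 went from 898 FPKM to 0 in the knockdown and from 0 to 1828 FPKM in the first control, again with 0 in the second. The 2 day 6 controls thus differed as much as the days did, and the 2 genes are described by their values only.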
